A study of Mus musculus with 12 samples.

Results

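*Smarcd3* and 9 other genes that encode exchangeable subunits of the BAF chromatin remodelling complexes were followed in mouse medulloblastoma (MB) and in granule neuron progenitors (GNPs). The members are *Smarcd1*, *Smarcd2*, *Smarcd3*, *Smarca2*, *Smarca4*, *Actl6a*, *Actl6b*, *Phf10*, *Dpf1* and *Dpf3*, which are 10 of the 19057 genes named on the array, and all 24 probes annotated to them were used. The set was assembled around *Smarcd3* because its signal was high in NdpKO;Ptch+/- MBs against Ptch+/- MBs. That contrast is therefore described for the members without a test, and so are the *Smarcd3* levels in every group.

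The study asked which genes in Shh-type MB depend on Norrin, the secreted ligand encoded by *Ndp*. Total RNA of 12 samples was hybridised to Illumina MouseWG-6 v2.0 BeadChips, 1 array a sample, with 4 arrays in each of 3 groups. The first group was MB dissected from symptomatic Ptch+/- mice, which carry a single working copy of the Shh receptor gene and are recorded on a C57Bl/6 background. The next was MB from symptomatic male NdpKO;Ptch+/- mice, whose X-linked *Ndp* is also disrupted in the germline by a lacZ cassette and whose background is recorded as mixed. The last was GNPs of wild-type (WT) C57Bl/6 mice at postnatal day 6 (P6), the cells from which this tumor arises, purified by a percoll gradient and pre-plating. By these records strain background and *Ndp* genotype cannot be told apart, although the design text speaks of controls bred in the same cohort as the compound mutants. Tumor age is not given in the sources used here. The study reports a shorter mean tumor latency in NdpKO;Ptch+/- mice than in Ptch+/- littermates. Its controls include both sexes, and the sex of each Ptch+/- MB was not found. Tumor age and sex may therefore also differ by genotype and cannot be told apart from it. The study's legends speak of separate animals for P6 GNP profiles, and whether each tumor came from a different mouse was not found in these sources, so p-values here speak of the spread among these samples only.

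BAF complexes, the mammalian SWI/SNF family, use ATP to move or evict nucleosomes. Each complex holds *Smarca4* (BRG1) or *Smarca2* (BRM) as its ATPase, around which variants of the other subunits are exchanged. As neural progenitors leave the cell cycle, the progenitor variants BAF53a (*Actl6a*) and BAF45a (*Phf10*) give way to BAF53b (*Actl6b*) and to BAF45b and BAF45c (*Dpf1* and *Dpf3*). The BAF60 position is filled by *Smarcd1*, *Smarcd2* or *Smarcd3* (BAF60a, BAF60b or BAF60c), of which *Smarcd3* is best known from heart and skeletal muscle.

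The regions upstream of *Smarcd3* and *Actl6b* are shown because these members differed most between the tumor genotypes. Each is the 250 bases before the annotated start in RefSeq (GRCm38.p6), written 5′ to 3′ on the strand of the gene, with CANNTG letters, the core of the E-box that basic helix-loop-helix factors bind, in capitals. *Smarcd3* lies on the minus strand at chr5:24602003-24602252 and *Actl6b* on the plus strand at chr5:137553296-137553545.
Smarcd3: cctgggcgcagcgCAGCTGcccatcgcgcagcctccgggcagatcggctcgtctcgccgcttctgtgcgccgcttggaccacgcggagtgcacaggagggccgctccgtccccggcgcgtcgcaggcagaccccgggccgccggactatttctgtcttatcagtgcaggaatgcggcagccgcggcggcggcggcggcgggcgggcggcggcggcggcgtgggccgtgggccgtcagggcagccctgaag
Actl6b: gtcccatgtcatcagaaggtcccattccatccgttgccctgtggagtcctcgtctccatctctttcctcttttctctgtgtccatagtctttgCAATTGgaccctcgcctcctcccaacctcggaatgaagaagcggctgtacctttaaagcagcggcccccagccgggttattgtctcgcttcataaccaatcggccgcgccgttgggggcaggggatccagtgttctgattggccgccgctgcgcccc
The *Smarcd3* sequence has a GC content of 76.0% and holds CAGCTG, the form that myogenic factors favour, from 237 to 232 bases before the start. The *Actl6b* sequence has a GC content of 58.0% and holds CAATTG from 157 to 152 bases before the start. Of 32851 promoters of this length, 13% hold CAGCTG and 66.2% hold any CANNTG, which includes every CAGCTG. Among the members *Phf10* also holds CAGCTG. GACCACCCA, the core letters that Gli factors bind, was searched on both strands and was in none of the 10 member promoters (0.225% of all promoters). GGGCGG, the letters of the GC box, was searched in the same way and was in 32.7% of all promoters, with 2 occurrences in *Smarcd3* and 0 in *Actl6b*.

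The values are the deposited log2 signals, background-corrected and quantile-normalized by the authors. Every array had a median of 4.15, so differences in general level between arrays cannot be seen, and 31.8% to 32.5% of the probes of an array reached 4.5. This level is used as the background limit, a choice made with the values in view. Between arrays of the same group Pearson's r ran from 0.984 to 0.996 across probes. A gene is represented by its brightest probe unless another is named, levels of different probes are not compared, and differences are on the log2 scale. The *Ndp* probe was under the limit on all 12 arrays and could not check the genotype. The progenitor markers *Atoh1*, *Gli1* and *Mycn* were under the limit on all 12 arrays as well, while *Zic1* and *Barhl1*, transcription factors of the granule lineage, were far above it on all arrays. Of the 10 listed progenitor markers 4 were higher than in GNPs in Ptch+/- MBs and 1 in NdpKO;Ptch+/- MBs. Lower was 1 in each, *Pax6* in Ptch+/- MBs (-1.68; limma, adjusted p = 0.00738) and *Zic2* in NdpKO;Ptch+/- MBs (-1.40, adjusted p = 0.0213). Over all genes 10.3% were higher and 10.9% lower in Ptch+/- MBs, and 7.69% and 7.98% in NdpKO;Ptch+/- MBs. The arrays measure whole samples, in which fewer cells of a type and less RNA per cell cannot be told apart.

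On the brightest probes, *Smarcd3* was the member that set the tumor genotypes apart. A single probe was annotated to it, so no other probe could check these values. Its signal was 8.11, 8.76, 7.79 and 8.07 in the NdpKO;Ptch+/- MBs and 4.70, 5.95, 4.46 and 4.69 in the Ptch+/- MBs. The 4 GNP arrays read 7.48, 7.71, 7.33 and 7.78. All NdpKO;Ptch+/- MBs were thus above all Ptch+/- MBs, and the nearest arrays of these groups were 1.84 apart. Ptch+/- replicate 2 was the high array of its group, while replicate 3 was under the background limit and the other two lay just above it. The group mean was 8.18 ± 0.41 (SD, n = 4) for NdpKO;Ptch+/- MBs, 4.95 ± 0.67 for Ptch+/- MBs and 7.58 ± 0.21 for GNPs. The NdpKO;Ptch+/- mean exceeded the Ptch+/- mean by 3.23 (standard error of the limma fit 0.32), or 9.40-fold, the value for which *Smarcd3* was chosen and the 10th highest of 19057 genes. Because 1 Ptch+/- array was under the limit, this fold is a fitted value.

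Against GNPs, *Smarcd3* lay on opposite sides in the tumor types. Ptch+/- MBs were lower by a difference of -2.63 (standard error 0.32), with GNPs 6.17-fold above them and no overlap. NdpKO;Ptch+/- MBs were higher by 0.61 (standard error 0.32), or 1.52-fold. These groups did not overlap either, but the lowest tumor and the highest GNP array were only 0.00892 apart. In order of level, *Smarcd3* was therefore lowest in Ptch+/- MBs, with NdpKO;Ptch+/- MBs and GNPs as neighbours that nearly touched. Leaving out 1 tumor array at a time gave tumor differences from 3.04 to 3.57, the highest without Ptch+/- replicate 2.

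**Figure D1:**
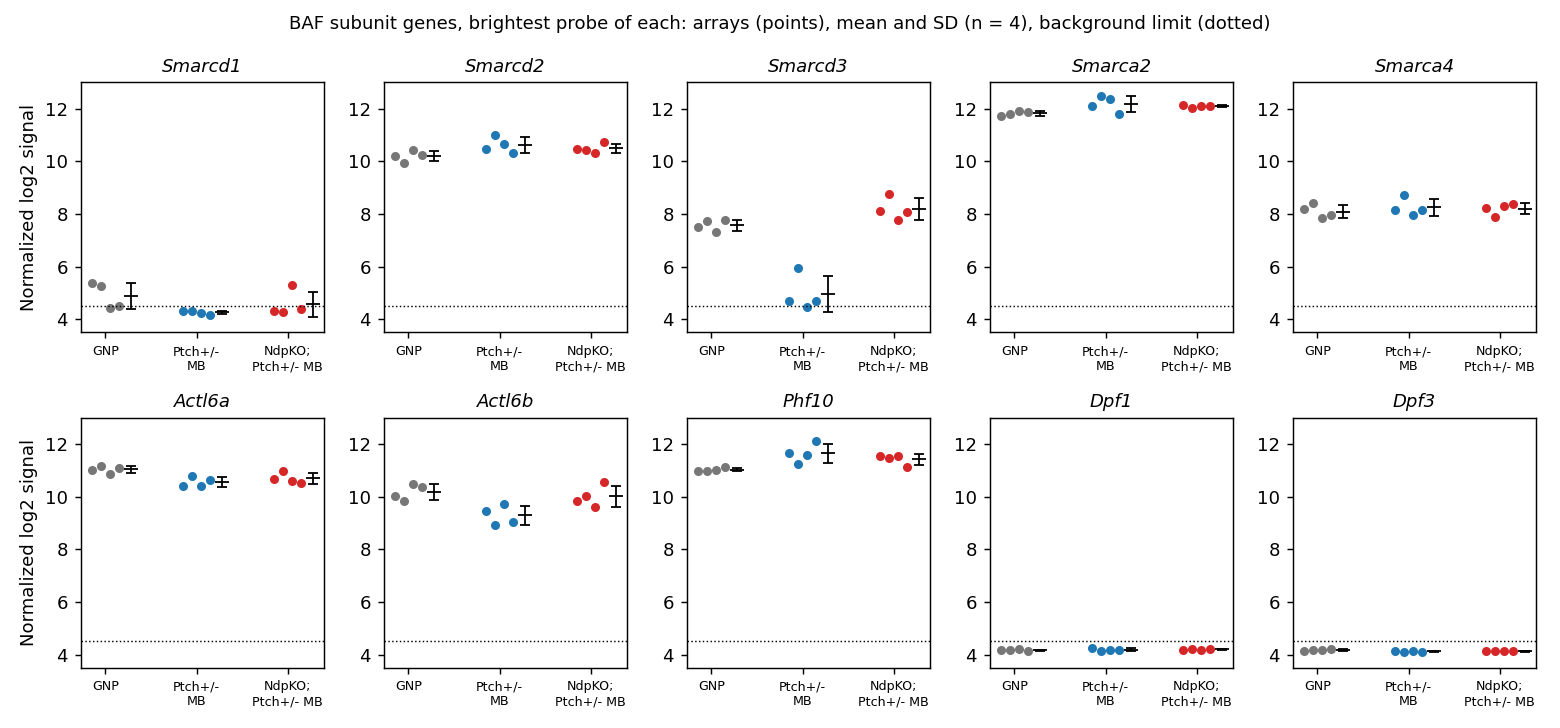
Normalized log2 signal (vertical axis) of the brightest probe of each of the 10 members in WT GNPs, Ptch+/- MBs and NdpKO;Ptch+/- MBs; points are arrays, bars are the mean and SD (n = 4) and the dotted line is the background limit of 4.5. *Smarcd3* lies between 4.46 and 5.95 in Ptch+/- MBs and at 7.33 or more in the other groups, while *Dpf1* and *Dpf3* stay under the limit on every array.

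The other subunits that fill the BAF60 position did not follow *Smarcd3*. *Smarcd2* was at 10.48, 10.44, 10.31 and 10.74 in NdpKO;Ptch+/- MBs, 10.48, 10.99, 10.66 and 10.30 in Ptch+/- MBs and 10.19, 9.95, 10.41 and 10.26 in GNPs. The 3 groups overlapped. Its difference between the tumor genotypes was -0.11 (standard error 0.16), and against GNPs it was 0.40 in Ptch+/- MBs (limma, adjusted p = 0.114) and 0.29 in NdpKO;Ptch+/- MBs (adjusted p = 0.296), neither of which passed. *Smarcd1* was close to background. Its brightest probe read 5.38, 5.25, 4.45 and 4.49 in GNPs, 4.30, 4.32, 4.25 and 4.17 in Ptch+/- MBs and 4.31, 4.27, 5.29 and 4.37 in NdpKO;Ptch+/- MBs. All Ptch+/- MBs were under the limit, as were GNP replicates 3 and 4 and every NdpKO;Ptch+/- MB but replicate 3. Ptch+/- MBs differed from GNPs by -0.63 on this probe, which did not pass (limma, adjusted p = 0.162). No fold is given, because arrays of both groups were under the limit. A dimmer *Smarcd1* probe passed as lower in both tumor types, at signals under the limit on all 12 arrays, and nothing is read from it.

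Neither ATPase gene passed the test against GNPs. *Smarca2* was at 12.13, 12.02, 12.11 and 12.11 in NdpKO;Ptch+/- MBs, 12.10, 12.46, 12.37 and 11.80 in Ptch+/- MBs and 11.70, 11.81, 11.91 and 11.89 in GNPs. The NdpKO;Ptch+/- MBs were close together and all above the GNPs, whereas Ptch+/- replicate 4 lay among the GNPs. The differences from GNPs were 0.27 in NdpKO;Ptch+/- MBs (limma, adjusted p = 0.222) and 0.36 in Ptch+/- MBs (adjusted p = 0.0806). Without Ptch+/- replicate 4 the latter was 0.49 and passed (adjusted p = 0.00508). Of the 4 dimmer *Smarca2* probes, 2 stayed under the limit on all arrays and the other 2 reached 5.24 and 6.12 at most, with no difference that passed. *Smarca4* ran from 7.83 to 8.73 over all arrays with the 3 groups interleaved. Its differences were 0.16 and 0.11 against GNPs in Ptch+/- and NdpKO;Ptch+/- MBs (adjusted p = 0.632 and 0.772) and -0.05 between the tumor genotypes (standard error 0.19).

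*Actl6b*, the BAF53b of postmitotic neurons, was lower in Ptch+/- MBs than in GNPs. Its brightest probe read 10.03, 9.84, 10.50 and 10.37 in GNPs and 9.46, 8.94, 9.74 and 9.03 in Ptch+/- MBs. The NdpKO;Ptch+/- MBs read 9.83, 10.04, 9.63 and 10.56. All Ptch+/- MBs lay under all GNPs, and the NdpKO;Ptch+/- MBs spanned the GNP values. *Actl6b* fell by 0.89 in Ptch+/- MBs (standard error 0.25; limma, adjusted p = 0.0346), and its difference from GNPs in NdpKO;Ptch+/- MBs was -0.17 (standard error 0.25, adjusted p = 0.738).

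The 3 dimmer *Actl6b* probes had the same direction in Ptch+/- MBs. Their differences from GNPs were -0.80 (limma, adjusted p = 0.0872), -2.40 (adjusted p = 0.00165) and -2.05 (adjusted p = 0.0120), from the brighter to the dimmer probe. The same probes had differences of -0.13, -0.64 and -1.17 in NdpKO;Ptch+/- MBs, none of which passed (adjusted p = 0.838, 0.327 and 0.139). Between the tumor genotypes all 4 probes were higher in NdpKO;Ptch+/- MBs, by 0.72, 0.67, 1.76 and 0.89. On 3 of them the tumor arrays overlapped. On the third, NdpKO;Ptch+/- MBs read 6.68, 7.41, 6.81 and 8.0 and Ptch+/- MBs 5.70, 5.67, 5.98 and 4.51, without overlap. The call on the brightest probe held in 2 of 8 fits that left out 1 array, those without Ptch+/- replicate 3 and without GNP replicate 2 (adjusted p from 0.0253 to 0.0905 over the 8), with differences from -1.04 to -0.78.

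*Actl6a*, the BAF53a of progenitors, gave opposite answers on its probes. The brighter probe read 11.02, 11.18, 10.86 and 11.11 in GNPs and 10.41, 10.77, 10.40 and 10.65 in Ptch+/- MBs, with all tumors under all GNPs. It fell by 0.48 (standard error 0.12; limma, adjusted p = 0.0241). The other probe read 8.47, 8.62, 8.45 and 8.22 in GNPs and 9.02, 8.79, 8.88 and 8.85 in Ptch+/- MBs, with all tumors above all GNPs. It rose by 0.44 (standard error 0.11, adjusted p = 0.0238), so no direction for the gene is given. The differences in NdpKO;Ptch+/- MBs were -0.35 and 0.15 (adjusted p = 0.109 and 0.459), and neither probe passed. The fall on the brighter probe passed in 3 of 8 fits without 1 array, those without Ptch+/- replicates 2 or 4 and without GNP replicate 3 (adjusted p from 0.0194 to 0.0674), and the mean of both probes differed by -0.019 (adjusted p = 0.905).

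Set against each other on the same array, the brightest *Actl6b* probe minus the brightest *Actl6a* probe averaged -0.85 ± 0.41 in GNPs (SD, n = 4), -1.26 ± 0.55 in Ptch+/- MBs and -0.68 ± 0.50 in NdpKO;Ptch+/- MBs. The ranges of the 3 groups overlapped. This difference mixes the hybridization of unlike probes and serves only to compare arrays.

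**Figure D2:**
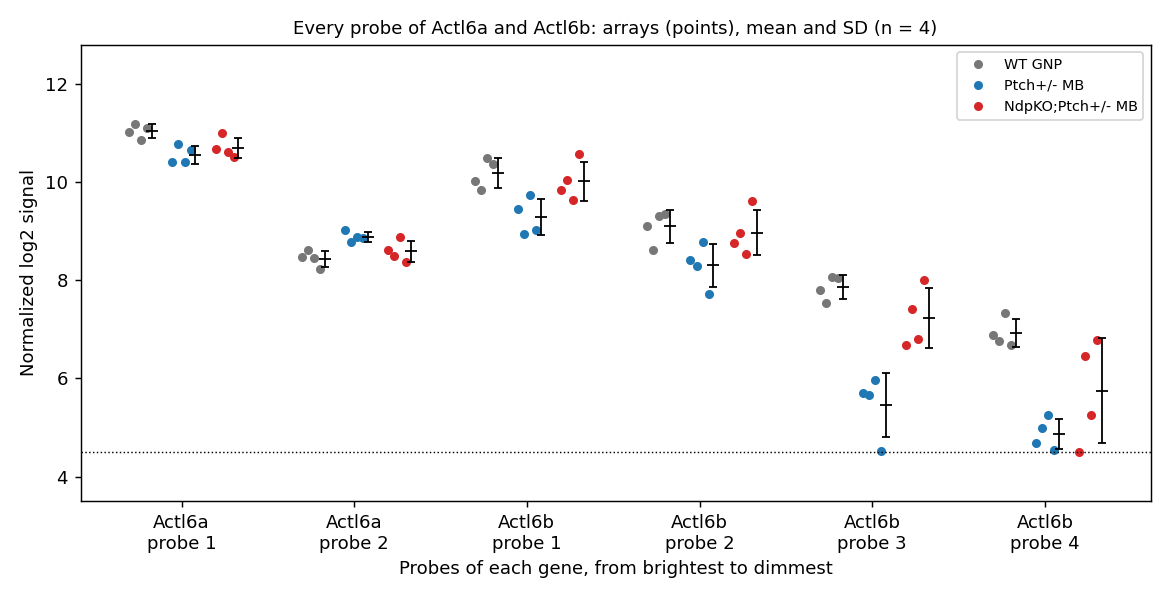
Normalized log2 signal (vertical axis) of the 2 *Actl6a* and 4 *Actl6b* probes, ordered from brightest to dimmest within each gene; points are arrays, bars are the mean and SD (n = 4) and the dotted line is the background limit of 4.5. The *Actl6a* probes move in opposite directions in Ptch+/- MBs, while all 4 *Actl6b* probes have their lowest mean there, from 9.29 on the brightest to 4.87 on the dimmest.

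*Phf10*, the BAF45a of progenitors, was higher in Ptch+/- MBs than in GNPs. It read 11.65, 11.24, 11.57 and 12.12 in Ptch+/- MBs, 11.55, 11.46, 11.53 and 11.13 in NdpKO;Ptch+/- MBs and 10.99, 10.99, 11.01 and 11.11 in GNPs. Every tumor of either genotype was above every GNP array, and the tumor genotypes overlapped. *Phf10* rose by 0.62 in Ptch+/- MBs (standard error 0.16; limma, adjusted p = 0.0293), while the difference of 0.39 in NdpKO;Ptch+/- MBs did not pass (adjusted p = 0.174). On the dimmer probe the differences were 0.59 (adjusted p = 0.0882) and 0.45 (adjusted p = 0.221). The call held in 2 of 8 fits without 1 array, those without Ptch+/- replicates 2 or 4 (adjusted p from 0.0091 to 0.0696). *Dpf1* and *Dpf3*, the neuronal BAF45 variants, were under the limit with all 5 of their probes on all 12 arrays, so the partner of *Phf10* in the switch could not be measured. The brightest *Dpf3* probe passed as lower in both tumor types, by a difference of -0.05 at background level, and counts for nothing here.

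Of the 9 members other than *Smarcd3*, 1 rose in Ptch+/- MBs against GNPs (*Phf10*), 3 fell (*Actl6a* on its brighter probe, *Actl6b* and, at background level, *Dpf3*) and 5 did not pass. Over all genes 10.3% were higher and 10.9% lower in the same test, and over the 8913 genes with a mean signal at or above the limit 19.7% and 18.5%. In NdpKO;Ptch+/- MBs against GNPs 0 members rose and 1 fell (*Dpf3*, at background level), where 7.69% of all genes were higher and 7.98% lower (15.5% and 13.3% of the 8913). Both comparisons share the GNP arrays. Leaving *Smarcd3* aside, the 7 members with a mean signal at or above the limit had a median difference of 0.16 in Ptch+/- and 0.11 in NdpKO;Ptch+/- MBs, against -0.01 and 0.04 for all 8913 such genes. With *Smarcd3*, the gene chosen on the tumor contrast, the medians became -0.16 and 0.19. Without overlap of arrays, 1 of the 7 was higher in Ptch+/- MBs (*Phf10*), beside 23.8% of the 8913 genes. Lower without overlap were 3 (*Actl6a*, *Actl6b* and, close to background, *Smarcd1*), beside 23%. The same count in NdpKO;Ptch+/- MBs was 2 higher (*Smarca2* and *Phf10*) and 0 lower, beside 21% and 18.7%. Between the tumor genotypes the arrays of all 7 overlapped, where 7.54% of the 8913 genes were higher and 7.54% lower without overlap.

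Several other cell types differed between the GNP and tumor samples. Of 7 measured oligodendrocyte markers 4 were lower and 2 higher than in GNPs in each tumor type, and *Mag*, a myelin protein, read 10.4 to 11.8 in GNPs and 4.22 to 5.56 in tumors. Of 8 microglia markers 6 were higher in each tumor type, with a log2 summed signal of 9.47 to 9.90 in GNPs, 11.8 to 12.4 in NdpKO;Ptch+/- MBs and 12.1 to 13.2 in Ptch+/- MBs. *Itgam* of that list was under the limit on all arrays. Of 14 markers of postmitotic neurons, the cells that carry *Actl6b*, 5 were lower and 1 was higher in Ptch+/- MBs and 4 were lower and 1 was higher in NdpKO;Ptch+/- MBs. Their log2 summed signal was 15.4 to 15.6 in GNPs, 14.7 to 15.2 in Ptch+/- MBs and 14.9 to 15.4 in NdpKO;Ptch+/- MBs, with *Snap25*, *Nefl*, *Gabra6*, *Grin2c* and *Tubb3* under the limit on all arrays. Endothelial markers were measured with 8 genes, of which 4 were lower than in GNPs in Ptch+/- MBs and 1 in NdpKO;Ptch+/- MBs, and 0 were higher. Their log2 summed signal was 11.38 to 11.95 in GNPs, 10.4 to 11.1 in Ptch+/- MBs and 10.7 to 11.3 in NdpKO;Ptch+/- MBs, with *Kdr* and *Tie1* under the limit on all arrays.

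Between the tumor genotypes 4 of the markers tested passed, where 0.808% of all genes were higher and 1.26% lower. Higher in NdpKO;Ptch+/- MBs were the neurofilament gene *Nefm* (difference 1.56; limma, adjusted p = 0.0321) and the endothelial gene *Emcn* (difference 1.95, adjusted p = 0.0321). *Emcn* averaged 8.06 in GNPs, 7.12 in Ptch+/- MBs and 9.07 in NdpKO;Ptch+/- MBs, the same order of groups as *Smarcd3*, and its tumor arrays did not overlap. Those of the endothelial cadherin *Cdh5* did not overlap either (difference 1.08, adjusted p = 0.235). The study had already named *Emcn* from these arrays as higher in NdpKO;Ptch+/- tumors, so its pass is no separate support. By quantitative RT-PCR the study also reported *Emcn* and *Pecam1* as higher there, and it showed the *Emcn* protein by immunostaining. Of the same list *Cldn5* (-0.01), *Flt1* (0.21), *Pecam1* (0.69) and *Tek* (0.92) overlapped between the tumors and did not pass. These genes and *Cdh5* did not share the group order of *Smarcd3*, because their GNP mean was the highest of the 3 groups. *Ccnd2* of the progenitor list and *Mcm2* of the proliferation list were lower in NdpKO;Ptch+/- MBs, by differences of -0.85 (adjusted p = 0.0280) and -0.77 (adjusted p = 0.00661). Each of the 4 was the only marker of its list that passed, among 14 neuronal, 8 endothelial, 10 progenitor and 10 proliferation genes. The median differences of these lists were 0.008, 0.45, -0.13 and 0.04, with genes at background included. Over their genes at or above the limit on at least 1 array the medians were 0.06, 0.80, -0.54 and 0.08. No list was tested as a whole. None of the astrocyte, oligodendrocyte, microglia, mural or muscle markers passed in this contrast. The part of these cell types in the results on *Smarcd3*, *Actl6b* and *Phf10* was not tested.

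*Smarcd3* is also a gene of muscle, so muscle genes stand beside it. Of 9 measured genes of skeletal and heart muscle, 6 were under the limit on all arrays, among them the myogenic factors *Myog*, *Myf5* and *Myf6*. *Myod1*, the myogenic factor that was detected, read 9.20, 9.71, 8.96 and 9.10 in NdpKO;Ptch+/- MBs and 5.79, 7.56, 4.23 and 7.33 in Ptch+/- MBs, and in GNPs it was at 4.53 or less. The tumor genotypes did not overlap, as for *Smarcd3*, but the GNP mean was the lowest of the 3 groups for *Myod1* and lay above the Ptch+/- mean for *Smarcd3*. *Actc1*, an actin of heart muscle, had the group order of *Smarcd3*, with means of 6.30 in NdpKO;Ptch+/- MBs, 4.23 in Ptch+/- MBs (under the limit on all 4 arrays) and 5.56 in GNPs. Its tumor arrays did not overlap. *Acta1*, the actin of skeletal muscle, was likewise under the limit on all Ptch+/- arrays and averaged 5.02 and 4.89 in NdpKO;Ptch+/- MBs and GNPs, and its tumor arrays overlapped. *Myod1*, *Actc1* and *Acta1* did not pass between the tumor genotypes (limma, adjusted p = 0.0546, 0.153 and 0.505). The log2 summed signal of the list was 9.36 to 10.2 in NdpKO;Ptch+/- MBs, 7.33 to 8.37 in Ptch+/- MBs and 7.48 to 8.24 in GNPs. In NdpKO;Ptch+/- MBs most of this sum came from *Myod1* alone. The part of these genes in the *Smarcd3* values was not tested.

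The remaining BAF subunits were drawn from a list of 20 genes, all of which were measured. In Ptch+/- MBs against GNPs 4 rose and 1 fell, and 15 did not pass, beside 10.3% higher and 10.9% lower over all genes and 19.7% and 18.5% over those above the limit, where 18 of the 20 lay on at least 1 array. *Bcl11a*, a zinc finger protein that joins neural BAF complexes, rose by 1.86, from 9.26 ± 0.15 to 11.12 ± 0.14 (SD, n = 4; limma, adjusted p = 2.43e-06). *Pbrm1* and *Arid2*, which are specific to the PBAF form of the complex, rose by 0.68 (adjusted p = 0.00396) and 0.58 (adjusted p = 0.0021), and *Arid1b*, a DNA-binding subunit of the BAF form, rose by 0.49 (adjusted p = 0.00592). *Smarcb1*, a core subunit, fell by 0.28 (adjusted p = 0.0139). In NdpKO;Ptch+/- MBs against the same GNPs 3 of the 20 rose, *Bcl11a* by 1.68 (adjusted p = 5.93e-06), *Arid2* by 0.56 (adjusted p = 0.00322) and *Pbrm1* by 0.45 (adjusted p = 0.0381), beside 7.69% of all genes and 15.5% of those above the limit. None fell, beside 7.98% of all genes and 13.3% of those above the limit. The median difference of the list was 0.21 in Ptch+/- and 0.05 in NdpKO;Ptch+/- MBs, and that of all genes was -0.0005 and 0.0004. The *Pbrm1* call in NdpKO;Ptch+/- MBs held in 1 of 8 fits without 1 array, that without GNP replicate 4 (adjusted p from 0.0469 to 0.0951), and its 4 dimmer probes did not pass in either tumor type.

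Between the tumor genotypes none of these 20 subunits passed in limma, where 0.808% of all genes were higher and 1.26% lower (1.6% and 2.59% of the 8913 above the limit). This does not show that their levels were equal. *Smarcb1* differed by 0.26 (adjusted p = 0.0977) and *Arid1b* by -0.34 (adjusted p = 0.128), so their changes against GNPs, called in Ptch+/- MBs alone, were not shown to differ between the tumors. Without NdpKO;Ptch+/- replicate 1 *Arid1b* passed as lower, the single call among the fits that left out 1 array. *Ss18*, the progenitor form at another exchanged position, read 11.8 to 12.1 on all arrays. Its neuronal counterpart *Ss18l1* (CREST) did not pass on its brightest probe in Ptch+/- MBs against GNPs (-0.24, adjusted p = 0.534). The middle of its 3 probes differed by -1.28 (adjusted p = 0.0520), and the dimmest fell by 1.19 (adjusted p = 0.0172). *Dpf2* and *Bicra* were under the limit on all arrays.

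**Figure D3:**
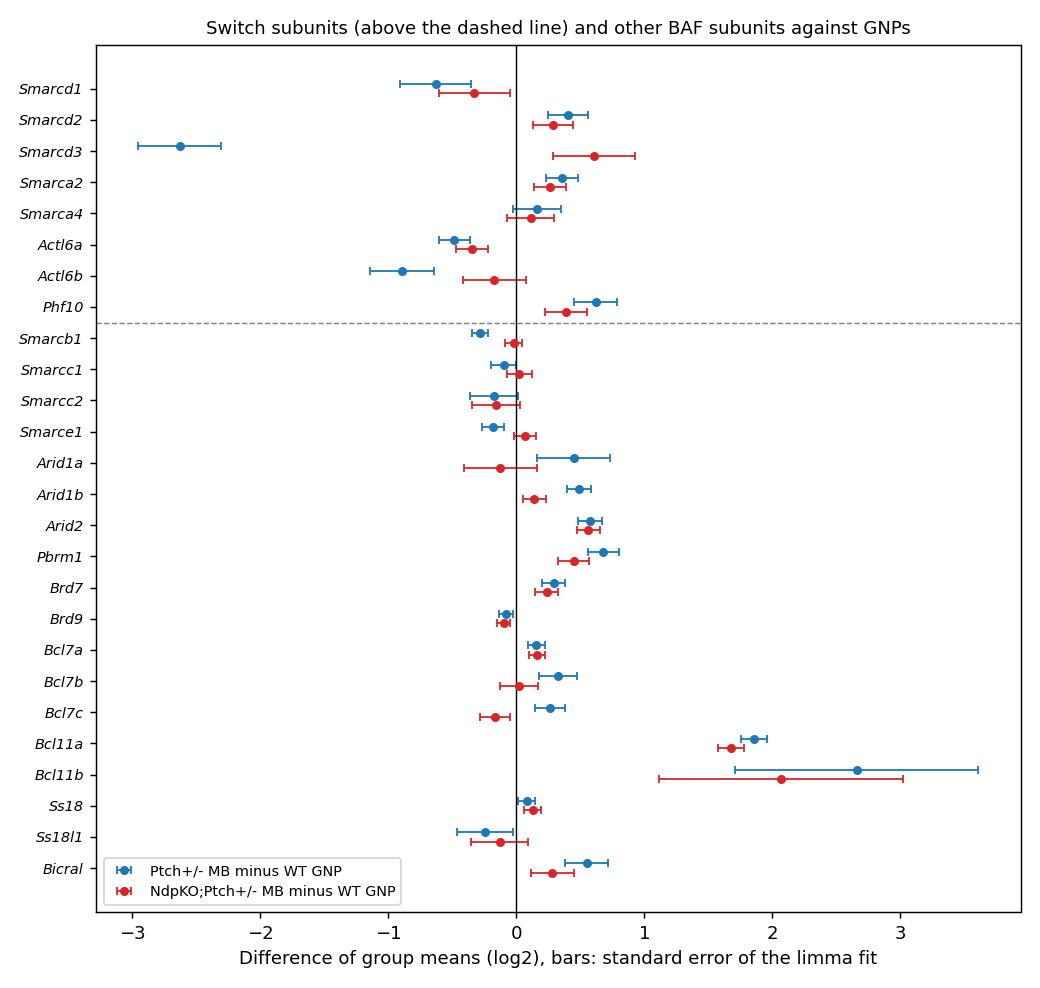
Difference of group means from WT GNPs (horizontal axis, log2) for Ptch+/- MBs and NdpKO;Ptch+/- MBs, with bars for the standard error of the limma fit; 8 members stand above the dashed line and 18 other BAF subunits below it, and the 4 genes under the background limit on all arrays are left out. *Smarcd3* has differences of -2.63 and 0.61 on opposite sides of zero, while *Bcl11a* is at 1.86 and 1.68.

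The genes most like *Smarcd3* were sought among 8921 genes at or above the limit on at least 4 arrays. Over all 12 arrays the highest Pearson's r belonged to *Smpdl3b* (0.968), *Palmd* (0.953), *Dnajc15* (0.946), *Galnt9* (0.942) and *Lrrfip1* (0.939). All 5 were lowest in the Ptch+/- MBs. *Smpdl3b*, which encodes a lipid-modifying membrane protein, averaged 7.73 in NdpKO;Ptch+/- MBs, 4.29 in Ptch+/- MBs (under the limit on all 4 arrays) and 7.24 in GNPs. *Lrrfip1* averaged 7.16, 4.42 and 7.28 in the same order. Over the 8 tumors alone they were *Chchd7* (0.987), *Prkcq* (0.980), *Cryba4* (0.975), *Crip2* (0.974) and *Celf6* (0.972). *Cryba4* was close to background, at 4.61 to 4.74 in NdpKO;Ptch+/- MBs and under the limit on all other arrays. It entered the search through that group alone. *Prkcq*, a protein kinase C, matched the high Ptch+/- replicate 2, with 6.47 there and 4.31 to 4.66 on the other Ptch+/- arrays. The groups form clusters of arrays, so these coefficients mostly order genes by their group means and carry no p. Of the other members *Actl6b* had the highest r to *Smarcd3* over the 12 arrays (0.642), and *Phf10* the lowest (-0.570).

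**Figure D4:**
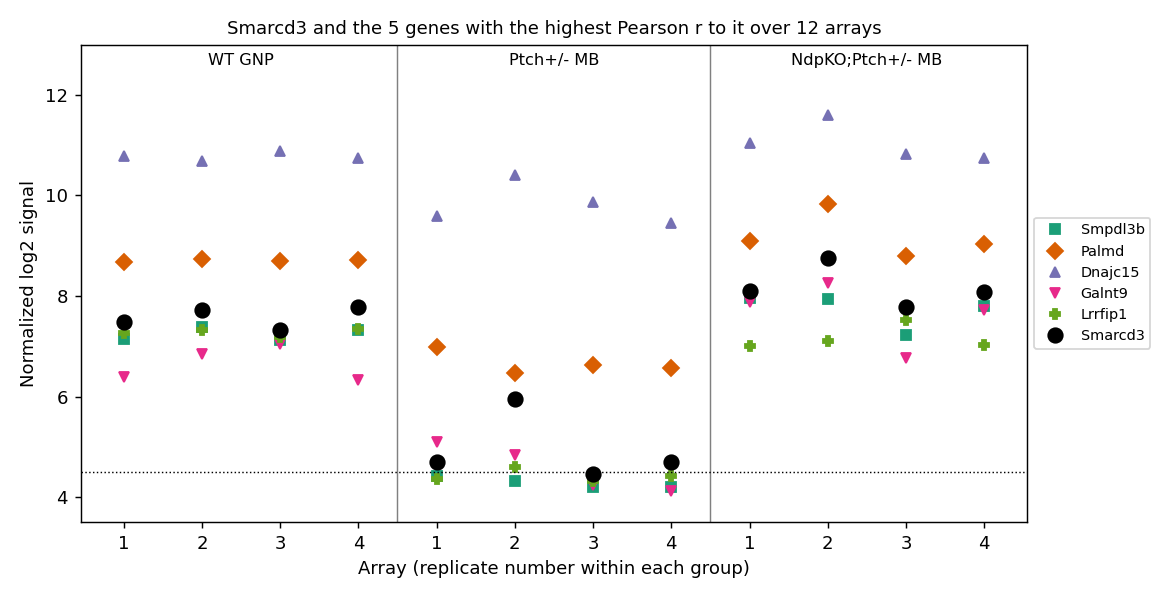
Normalized log2 signal (vertical axis) of *Smarcd3* and of the 5 genes with the highest Pearson's r to it over 12 arrays, by group and replicate number (horizontal axis); the dotted line is the background limit of 4.5. All 6 genes are lower in the 4 Ptch+/- MBs than in the other arrays, with *Smarcd3* at 5.95 in replicate 2.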

How the data were processed

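The authors passed the BeadStudio tables through neqc of limma, which subtracts background by means of the negative controls, adds an offset and equalizes the quantiles of the arrays, and deposited log2 signals of 45281 probes on 12 arrays. Probe symbols came from the platform annotation, which can be dated: 34885 probes had 1 symbol, 18 several and 10378 none. Groups were compared here in R 4.3.3 with lmFit and eBayes of limma 3.58.1 with a mean per group and no covariates, all 12 arrays in the fit. Tests were 2-sided, the Benjamini-Hochberg adjustment covered all probes and the threshold was 0.05. In simulated data for Ptch+/- MBs against GNPs (45281 probes) 55 of 100 probes changed by a log2 of 1 and 91 of 100 changed by 2 were recovered, with 9 false calls. The members, the lists of genes and the background limit were chosen with earlier results of these data known.

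The text names all members, the other BAF subunits that passed in any comparison or were under background, the 5 genes most like *Smarcd3* over all arrays and over the tumors, and markers that check a label or stand beside a result. *Ss18* and *Ss18l1*, and the genes named for single alternatives, were chosen after their values were seen. Where all arrays of the dimmer group were under 4.5, no fold between the groups is given. Replicate numbers did not pair the samples (Pearson's r of same-numbered deviations from -0.21 to 0.14, over 0.1 in 1 of 12 pairs). The alternatives were centring arrays on bright probes, omitting dim probes, a robust prior with an intensity trend, array weights, only the groups compared, the replicate block, the mean of a gene's probes, a threshold of 0.01 and leaving out each array, and for the other BAF subunits against GNPs these were chosen after seeing the data. Promoter sequences of all 10 members came from RefSeq (GRCm38.p6). GNPs of the other genotypes named in the protocol were not analysed here. Precision is limited by the 4 arrays of each group.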

Additional observations from a re-analysis of the deposited data

Results flagged for a closer look

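In Ptch+/- MBs the *Smarcd3* signal of replicate 2 (5.95) lay far above the other 3 arrays, with a gap of 0.837 of the group's range. In NdpKO;Ptch+/- MBs the *Smarcd1* signal of replicate 3 (5.29) lay far above the other 3 arrays, all of which were under the background limit, with a gap of 0.901 of the range. A gap over 0.829 of the range was flagged. Among the 23 groups of 4 arrays examined in this way, chance alone would flag about 1 in 20 if the values were normally spread. In both flagged groups the other 3 arrays lay under or close to the background limit, so this rate need not hold for them.

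The difference of *Smarcd3* from GNPs had opposite signs in the tumor types, at -2.63 in Ptch+/- MBs and 0.61 (standard error 0.32) in NdpKO;Ptch+/- MBs, whose lowest array was only 0.00892 above the highest GNP array. All 4 NdpKO;Ptch+/- MBs were above the GNP mean and all 4 Ptch+/- MBs were under it, and the differences were 3.23 apart on the log2 scale. This difference was not tested, because *Smarcd3* was chosen for it.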

How the results depend on the processing

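The tumor difference of *Smarcd3* was 3.04 to 3.57 with 1 array left out. The member calls against GNPs were less stable, and the cause was not tested. In Ptch+/- MBs the number of members that rose was 1 as reported and 2 with dim probes omitted, array weights or an intensity trend (*Smarca2* added), and 0 with only the groups compared, with the replicate block or at 0.01. It was 0 to 2 with 1 array left out. The number that fell was 3 as reported, 0 at 0.01 and 1 to 2 with 1 array left out. With the replicate block *Actl6b* and *Phf10* had adjusted p of 0.0698 and 0.0727. In NdpKO;Ptch+/- MBs 2 members rose with only the groups compared (*Smarca2* and *Phf10*), against 0 as reported and 0 with any 1 array left out. The fall of 1 member became 0 with dim probes left out, with only the groups compared and at 0.01, and was 0 to 1 with 1 array left out. *Actl6a* fell in NdpKO;Ptch+/- MBs with the replicate block (adjusted p = 0.0387). With the mean of a gene's probes, *Smarca2* turned to -0.021 against GNPs in NdpKO;Ptch+/- MBs, and the *Actl6a* tumor difference moved from 0.14 to -0.08.

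Of the other BAF subunits, 1 was lower between the tumor genotypes with the mean of probes (*Bcl7c*), and 0 to 1 with 1 array left out. In Ptch+/- MBs against GNPs 7 rose with dim probes left out and 4 to 8 with 1 array left out (8 without Ptch+/- replicate 2). With the mean of probes 2 fell (*Smarcb1* and *Ss18l1*), and 0 at 0.01. In NdpKO;Ptch+/- MBs 1 fell when arrays were centred (*Dpf2*, at background level), and 2 to 3 rose with 1 array left out. *Arid2* and *Bcl11a* passed in all 16 alternatives in both tumor types. The replicate block, whose numbers did not pair the samples, moved the genes called from 4041 to 3482, from 2986 to 2459 and from 395 to 150 in Ptch+/- MBs against GNPs, NdpKO;Ptch+/- MBs against GNPs and between the tumors. Probes near background limit *Smarcd1*, *Dpf1*, *Dpf3* and *Smarcd3* in Ptch+/- MBs.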
